A study of Bos taurus and Sus scrofa with 6 samples.

Results

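Complement is a cascade of blood and tissue proteins, and 8 of its genes were followed here through the cells of the prepubertal testis of cattle and pigs: C1QA, C1QB, C1QC, C1R, C1S, C3, C7 and CFD. The genes were chosen by symbol because earlier readings of these same tables placed them in macrophages and stroma, so their levels across cell types are a description and carry no test. All 8 symbols are listed once in each species, among 14033 symbols that the cattle table (19994 genes) and the pig table (22694 genes) share. Total testicular cells came from 3 Holstein cattle (age 4.5 months) and from 3 pigs of mixed breed (age 3 months), collected by castration and loaded on a Chromium Controller with v2 chemistry kits, which count unique molecular identifiers (UMIs) near the 3′ end of each transcript. The cattle identifiers are ENSBTAG00000007153 (C1QA), ENSBTAG00000011196 (C1QB), ENSBTAG00000011193 (C1QC), ENSBTAG00000008612 (C1R), ENSBTAG00000004840 (C1S), ENSBTAG00000017280 (C3), ENSBTAG00000011766 (C7) and ENSBTAG00000048122 (CFD). The pig identifiers are ENSSSCG00000003524 (C1QA), ENSSSCG00000033512 (C1QB), ENSSSCG00000038706 (C1QC), ENSSSCG00000000675 (C1R), ENSSSCG00000039847 (C1S), ENSSSCG00000013551 (C3), ENSSSCG00000016859 (C7) and ENSSSCG00000013418 (CFD). No animal received a treatment according to the labels, so the comparisons are between cell types within an animal and between the species, and species cannot be told apart from breed, age or gene annotation.

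C1q is the recognition molecule of the classical pathway. It is assembled from A, B and C chains encoded by C1QA, C1QB and C1QC, binds antibody complexes and dying cells, and is known as a product of tissue macrophages rather than of the liver. The serine proteases C1r and C1s ride on C1q; activated C1s cleaves C4 and C2, which forms the enzyme that cuts C3, the protein on which all complement pathways converge. Factor D, encoded by CFD, cuts factor B and so drives the alternative pathway, and C7 is the component that lets the terminal complex insert into a membrane. In the testis, macrophages lie in the interstitium and on the tubule wall, next to Leydig cells and to the myoid and fibroblast-like cells that are here called stroma.

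After cell calling and removal of doublets, 17482 cattle cells and 9206 pig cells remained, of which all but 21 and 278 fell into 8 named classes. Macrophage-like cells numbered 68, 171 and 168 in cattle 1, 2 and 3 and 110, 90 and 304 in pigs 1, 2 and 3. Stroma held 8225 cattle cells and 709 pig cells, of which pig 1 gave 86. At Leiden resolution 2 pig 1 kept 9 stromal cells, and with doublets kept 10, while its Leydig-like cells numbered 1001 and 1041 in place of 925, so the stromal values of pig 1 depend on how its clusters were drawn. In cattle, 6 of the 7 stromal clusters held over 95% of their cells from 1 library. Depth differed between libraries: the median UMI count of a macrophage-like cell was 637.5, 1219 and 3768.5 in cattle and 878.5, 3360 and 5325 in pigs. In both species 1 testis number stands in the titles of 2 libraries, and all were counted as separate animals as the methods describe. Between 8 and 61 cell barcodes were shared by any pair of libraries of a species. All levels are CPM, the UMIs of a gene in the summed cells of a class and animal scaled to a common total. As UMIs count molecules at 1 end of a transcript, they were not divided by gene length. The cattle tables also hold barcodes with at most 50 UMIs, which were summed as empty droplets and measure the free RNA of each suspension. The pig tables hold none. The CPM of a class also counts the cells' own RNA, which lowers the share of free RNA. A level under the empty droplets therefore does not show that a class lacks the gene. In summed cells, fewer expressing cells and less RNA per cell cannot be told apart.

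The C1q genes lie side by side. In the pig genome (Sscrofa11.1, RefSeq annotation) C1QA is at chr6:80586259-80589213, C1QC at chr6:80592591-80597464 and C1QB at chr6:80601680-80606076, all on the plus strand. C1R (chr5:63644097-63655149, plus strand) and C1S (chr5:63670309-63681466, minus strand) face each other across 15160 bases. C3 is at chr2:72431470-72471622 (plus strand) and CFD at chr2:77509792-77511988 (minus strand). In the RefSeq gene table for cattle, of another build than the files and so used for neighbours alone, C1QC again adjoins C1QA and C1R adjoins C1S. The 250 bases before each annotated start are shown for these 5 genes because the chains of C1q, and C1r with C1s, work as 1 complex, and capitals mark the core of sites of the PU.1 type (GAGGAA on either strand), PU.1 being a transcription factor of macrophages. The windows are chr6:80586009-80586258 for C1QA, chr6:80592341-80592590 for C1QC, chr6:80601430-80601679 for C1QB, chr5:63643847-63644096 for C1R and, read on the minus strand, chr5:63681467-63681716 for C1S.
C1QA: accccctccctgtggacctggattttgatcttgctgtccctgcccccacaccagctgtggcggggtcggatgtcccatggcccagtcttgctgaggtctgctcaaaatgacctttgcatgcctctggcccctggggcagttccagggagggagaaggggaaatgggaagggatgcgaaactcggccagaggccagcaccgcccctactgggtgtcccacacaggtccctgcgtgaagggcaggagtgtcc
C1QC: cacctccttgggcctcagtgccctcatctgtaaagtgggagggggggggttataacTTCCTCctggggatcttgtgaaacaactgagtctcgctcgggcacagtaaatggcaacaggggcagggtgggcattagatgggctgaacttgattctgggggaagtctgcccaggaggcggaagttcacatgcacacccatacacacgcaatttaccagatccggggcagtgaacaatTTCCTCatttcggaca
C1QB: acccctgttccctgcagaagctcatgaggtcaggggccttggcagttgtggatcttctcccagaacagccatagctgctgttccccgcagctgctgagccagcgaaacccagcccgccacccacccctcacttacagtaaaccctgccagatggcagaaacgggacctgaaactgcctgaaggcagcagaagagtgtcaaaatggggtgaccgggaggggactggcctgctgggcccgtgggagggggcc
C1R: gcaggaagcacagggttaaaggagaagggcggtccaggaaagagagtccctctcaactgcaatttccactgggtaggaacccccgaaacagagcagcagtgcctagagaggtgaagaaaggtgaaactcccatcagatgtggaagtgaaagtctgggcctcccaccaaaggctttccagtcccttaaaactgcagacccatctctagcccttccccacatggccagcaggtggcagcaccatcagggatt
C1S: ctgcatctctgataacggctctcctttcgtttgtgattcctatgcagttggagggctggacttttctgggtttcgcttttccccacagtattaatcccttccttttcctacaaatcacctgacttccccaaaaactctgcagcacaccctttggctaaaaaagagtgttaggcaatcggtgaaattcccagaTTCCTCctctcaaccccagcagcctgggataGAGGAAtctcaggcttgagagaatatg

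These letters occurred 2 times in the C1QC window, 2 times in the C1S window and 2 times in the CFD window. The windows of C1QA, C1QB, C1R, C3 and C7 did not hold them. Among 19556 protein-coding genes, 22% had the letters in a window of the same length. The letters TTCNNNGAA, which STAT factors bind, were in none of the 8 windows, against 6.12% of the 19556. A match describes the sequence and not a site in use.

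C1q transcripts were concentrated in macrophage-like cells of both species. With the 3 chains summed (C1Q), macrophage-like cells of cattle 1, 2 and 3 held 19878, 39368 and 28534 CPM, a mean of 29260.3 ± 9765 CPM (SD, n = 3). The next class in cattle, lymphocyte-like cells, averaged 500.5 CPM (759, 406 and 336), so that no macrophage-like sum came near any other class. In pigs the macrophage-like C1Q sums were 4331, 3820 and 8823 CPM, and dendritic-like cells came next at 153 ± 159 CPM. The ratio of the first class to the second was 58.5 in cattle and 36.9 in pigs. Below the first class the order was not resolved, since the ranges of neighbouring classes overlapped at every step in both species.

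**Figure D1:**
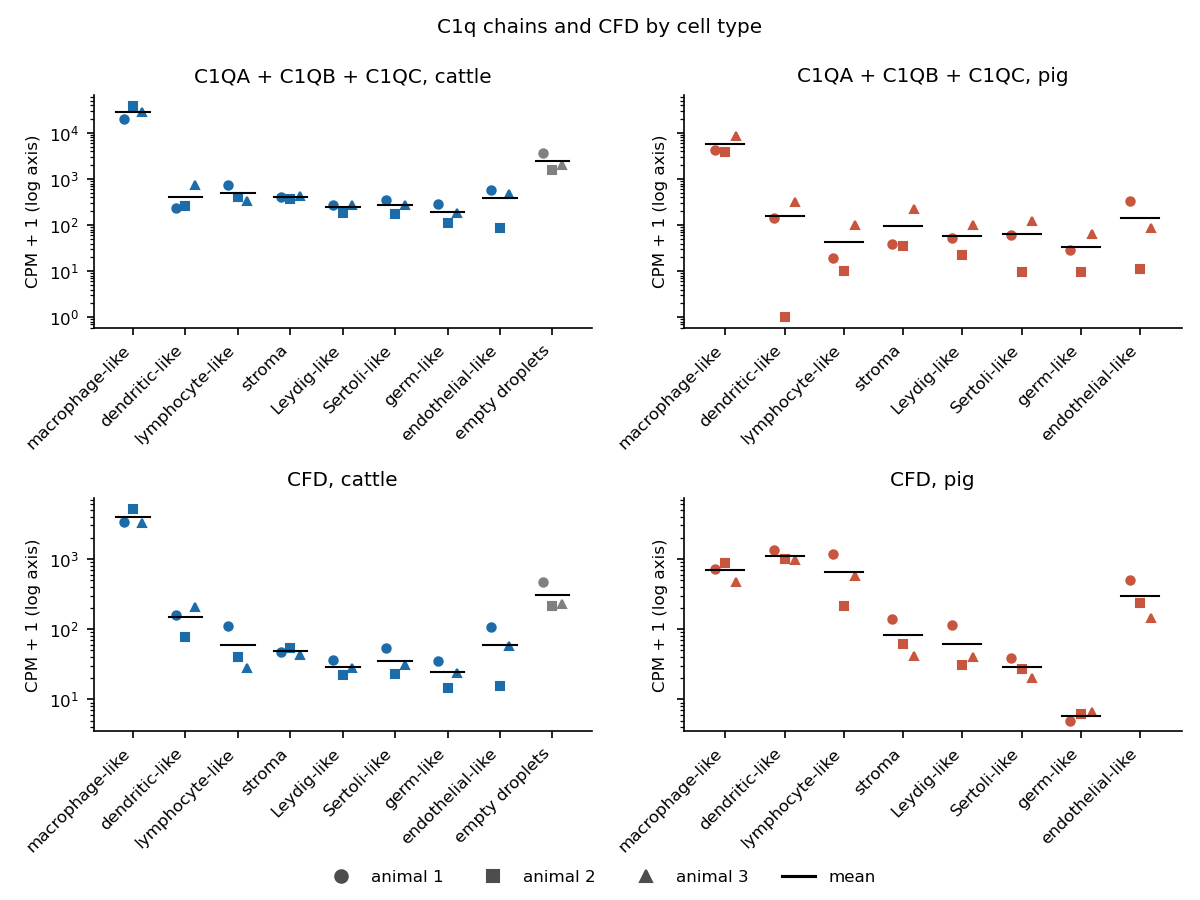
Level of the summed C1q chains (top) and of CFD (bottom) in CPM + 1 on a log axis, by cell class, in cattle (left) and pigs (right). Each point is 1 animal, bars are means of 3 animals, and grey points are cattle empty droplets. C1q led in macrophage-like cells of both species, while CFD led in macrophage-like cells of cattle and in dendritic-like cells of pigs.

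Outside macrophages, C1q took a smaller share of the UMIs of cattle cells than of droplets with no cell. The empty droplets of cattle 1, 2 and 3 held 3683, 1584 and 2013 CPM of C1Q, above every cell class but the macrophage-like one in each animal. Macrophage-like cells held 61.0 ± 10.4% of all C1Q UMIs in cattle and 82.0 ± 10.0% in pigs (SD, n = 3), and stroma, the largest cattle class, held 17.9 ± 0.32% in cattle. In cattle the mix of chains had close means in the 3 sources with the most C1Q UMIs. C1QA, C1QB and C1QC made up 38.6 ± 1.5%, 25.1 ± 2.2% and 36.2 ± 2.4% of the C1Q UMIs in macrophage-like cells, and 39.8 ± 2.2%, 24.9 ± 2.6% and 35.3 ± 1.7% in stroma. In empty droplets the shares were 39.6 ± 3.8%, 25.5 ± 4.9% and 34.9 ± 3.5%. Classes with fewer UMIs ranged more widely: germ-like cells had 51.7%, 16.1% and 32.2% in cattle 2 (143 UMIs), and dendritic-like cells had 47.4%, 15.2% and 37.4% in cattle 3 (171 UMIs).

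Pig macrophage-like cells had another mix of chains. C1QB took 50.6%, 51.4% and 43.5% of the C1Q UMIs in pigs 1, 2 and 3, and C1QC took 20.9%, 18.0% and 25.3%. In cattle 1, 2 and 3 the C1QB share was 27.6%, 23.5% and 24.3%, so the ranges of the species did not overlap for this chain.

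Per cell, the chains were detected together. All 3 chains were seen in 69.1%, 90.6% and 86.3% of the macrophage-like cells of cattle 1, 2 and 3, and no chain in 17.6%, 4.09% and 4.17%. In pigs 1, 2 and 3, all 3 chains were seen in 23.6%, 24.4% and 45.7% of the cells, and none in 58.2%, 64.4% and 34.2%. When each cell was thinned to 500 UMIs, which left out 10 of the 407 cattle cells and no pig cell, the share without a chain was 27.6%, 4.68% and 14.3% in cattle and 60.0%, 66.7% and 52.3% in pigs. The pig cells therefore had the larger share without C1q at equal depth in each animal. As background, thinned stromal cells had a C1QA UMI in 6.16 ± 1.29% (cattle) and 2.01 ± 1.11% (pigs) of cells, against 79.4 ± 11.5% and 25.6 ± 8.53% of macrophage-like cells (SD, n = 3).

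**Figure D2:**
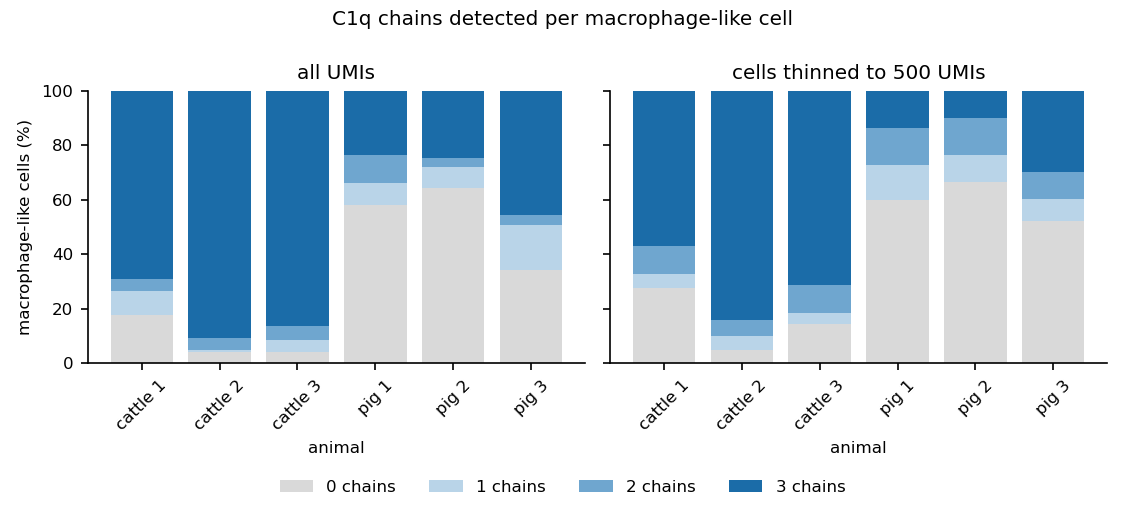
Share of macrophage-like cells in which UMIs of 0, 1, 2 or 3 different C1q chains were detected, in %, for each animal, with all UMIs (left) and after thinning to 500 UMIs a cell (right). Cells with no chain made up 4.09% to 17.6% in cattle and 34.2% to 64.4% in pigs before thinning.

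The pig macrophage-like class was itself mixed. At a finer clustering (Leiden resolution 2), in which the complement genes again took no part, 4 clusters were named macrophage-like. They held 110, 98 and 328 cells of pigs 1, 2 and 3, more than the 504 of the class in all, so some cells came from other classes. A cluster of 193 cells led by CXCL13, a B-cell attracting chemokine, held 13166 CPM of C1Q and 506 CPM of C1R, and 99.5% of its cells came from pig 3. A cluster of 51 cells with 2669 CPM of S100A12, a calcium-binding protein of monocytes and neutrophils, held 287 CPM of C1Q and 1156 CPM of CFD. The other clusters, both led by HLA-DRA, held 3233 CPM (113 cells, 97.3% from pig 1) and 1829 CPM (179 cells) of C1Q. In cattle the same resolution gave 2 macrophage-like clusters with 33707 CPM and 29819 CPM. The Pearson correlation of C1QA with CFD was -0.06, 0.07 and -0.36 over the 110, 90 and 304 macrophage-like cells of pigs 1, 2 and 3, while C1QA and C1QC gave 0.78, 0.92 and 0.93 over the same cells. In cattle 1, 2 and 3, C1QA and CFD gave 0.43, 0.59 and 0.41 over 68, 171 and 168 cells. These correlations share the depth of each cell and are given as description.

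CFD was highest in macrophage-like cells of cattle and was spread over immune and endothelial-like classes in pigs. Cattle macrophage-like cells held 3373, 5124 and 3269 CPM (3922 ± 1042 CPM, SD, n = 3). Dendritic-like cells came next at 157, 75.4 and 205 CPM, with no overlap. In pigs, dendritic-like cells were highest at 1347, 1004 and 965 CPM, above the macrophage-like sums of 713, 869 and 473 CPM in each animal. Pig lymphocyte-like cells held 1174, 213 and 568 CPM, a range that spans the macrophage-like one. Within that class, a cluster of 93 cells held 1196 CPM and the other, of 148 cells, 45.2 CPM. Endothelial-like cells held 503, 238 and 144 CPM, and in pig 2 they gave 502 of the 1334 CFD UMIs, the largest share of any class there. The endothelial-like values of pig 1 rest on 6 cells with 5959 UMIs in all. Thinned, 12.7 ± 3.6% of endothelial-like cells had a CFD UMI, against 0.19 ± 0.22% of germ-like cells (SD, n = 3). Pig germ-like cells were lowest at 3.9, 5.1 and 5.6 CPM. In the RefSeq annotation of the pig, CFD lies wholly inside MED16 on the opposite strand. The counted genes carry ENSSSCG identifiers and not RefSeq ones, and whether the counting used strand is not given in the sources used here.

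C1R and C1S were highest in stroma and second in Leydig-like cells of cattle. Cattle stroma held 402, 446 and 551 CPM of C1R and 1360, 1594 and 1902 CPM of C1S. Leydig-like cells held 315, 367 and 264 CPM of C1R and 645, 1029 and 747 CPM of C1S, below stroma in each animal for both genes. Macrophage-like cells, the source of C1q, held 102, 142 and 111 CPM of C1R and 153, 129 and 182 CPM of C1S. These macrophage-like values lay under those of the empty droplets (262, 199 and 236 CPM of C1R; 547, 526 and 808 CPM of C1S).

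In pigs, C1R and C1S did not share 1 pattern. Pig stroma led for both genes, with 179, 182 and 472 CPM of C1R and 205, 225 and 597 CPM of C1S. Macrophage-like cells came second for C1R at 102, 48.6 and 350 CPM, a range that overlaps that of stroma. For C1S they held 0, 27.3 and 17.1 CPM. The ratio of C1S to C1R UMIs in stroma was 3.47 ± 0.095 in cattle and 1.22 ± 0.064 in pigs (SD, n = 3), and in pig 3, whose macrophage-like cells gave 632 C1R UMIs, it was 0.049 in those cells. The stromal ratio of pig 1 rests on 16 C1S and 14 C1R UMIs, so its closeness to the other pigs is uncertain. Thinned to 500 UMIs, 53.5 ± 5.6% of cattle stromal cells and 15.5 ± 9.4% of pig stromal cells had a C1S UMI, against 3.19 ± 0.99% and 0.19 ± 0.16% of Sertoli-like cells.

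C7 was highest in cattle stroma and was almost unread in pigs. Cattle stroma held 454, 649 and 669 CPM (591 ± 119 CPM, SD, n = 3), and Leydig-like cells, next, held 70.6, 113 and 77.2 CPM. The Leydig-like level was 1.05, 0.488 and 0.281 of that of the empty droplets in cattle 1, 2 and 3. In stroma it was 6.78, 2.80 and 2.44 of that level. Among stromal clusters, those whose interstitial marker score was above their myoid score by at least 1 on the log2 scale held 456, 806 and 949 CPM, and the contractile remainder held 454, 601 and 542 CPM. The interstitial clusters of cattle 1 rested on 14 C7 UMIs. Thinned, 25.3 ± 4.3% of stromal cells had a C7 UMI. Pig stroma gave 3 C7 UMIs among 2549986, or 1.18 CPM, against 13866 among 21264253 in cattle, a ratio of 554 with a counting interval of 190 to 2688 (exact, 95%). Pig macrophage-like, Leydig-like and germ-like cells gave 0. Intervals of this kind cover counting error and not the spread between animals. RefSeq places the pig gene at chr16:25846860-25902707 with 19 exons, which need not be the gene model that was counted. Species and annotation cannot be told apart in this ratio.

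**Figure D3:**
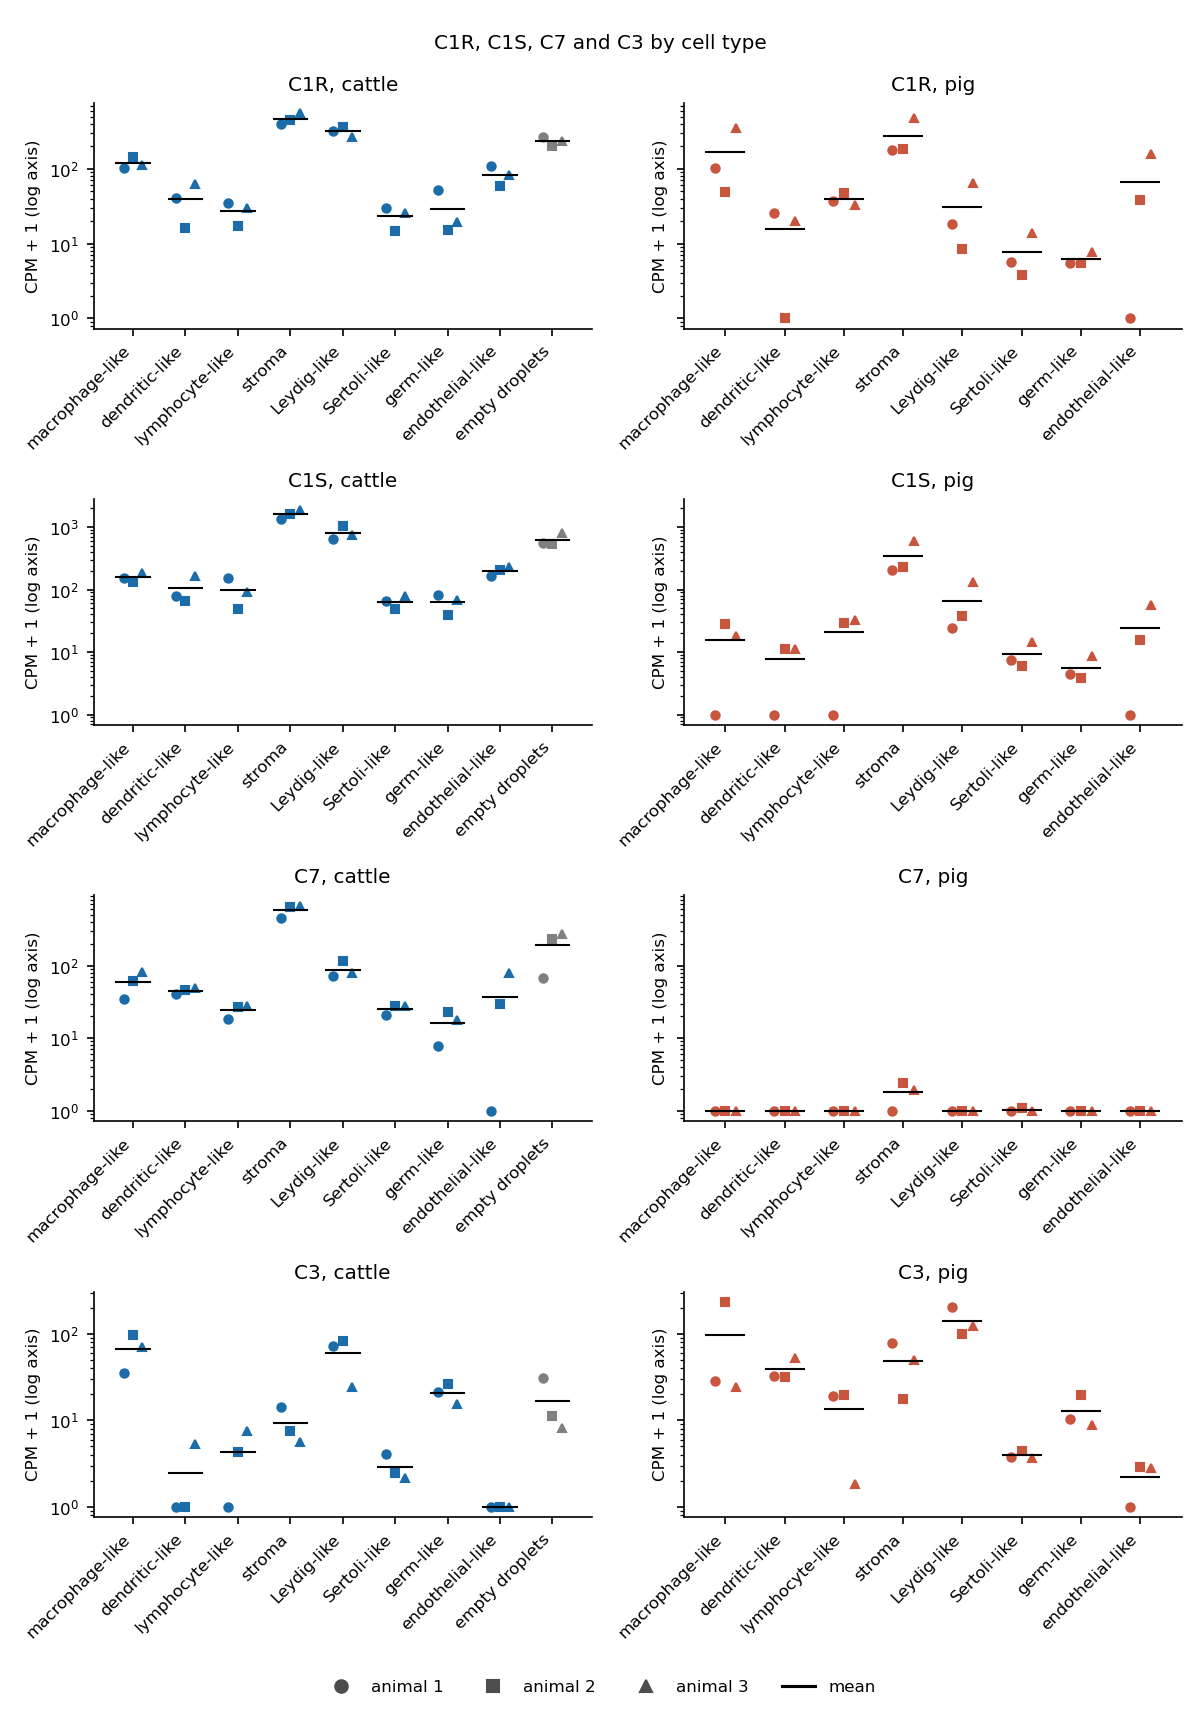
Levels of C1R, C1S, C7 and C3 (rows) in CPM + 1 on a log axis by cell class, in cattle (left) and pigs (right), with 1 point per animal, bars for the mean of 3 animals and grey points for cattle empty droplets. C1R and C1S led in stroma of both species, C7 led in cattle stroma at 454 to 669 CPM, and C3 was highest in macrophage-like and Leydig-like cells.

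C7 in cattle germ cells was compared with free RNA, since 78 of 520 germ-like cells carried a C7 UMI. Germ-like cells of cattle 1, 2 and 3 held 6.8, 22.0 and 16.9 CPM of C7, from 2, 29 and 63 UMIs. The empty droplets of the same libraries held 67.0, 232 and 275 CPM. The germ-like level was thus the lower in each animal, and the 2 groups did not overlap. The means were 15.2 ± 7.71 CPM (germ-like) and 191 ± 110 CPM (empty) (SD, n = 3 each), and a two-sided exact permutation test gave p = 0.1, the smallest that 3 against 3 allows. Fitted over all 12425 genes with edgeR's quasi-likelihood test, the log2 difference was -4.32 ± 0.50 (SE), with a Benjamini-Hochberg adjusted p of 9.97e-05. As a share of all UMIs, C7 in germ-like cells was thus below the empty droplets, and not at or above them. The cells' own RNA lowers the share of any free RNA, so the test cannot tell whether germ-like cells make some C7.

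The other complement genes, C3 apart, and stromal genes were also lower in germ-like cells than in empty droplets. Of the 8 complement genes, all of which passed the count filter, 7 were called lower in germ-like cells than in empty droplets, against 20.3% of all genes tested called lower and 40.4% called in either direction. Their log2 differences ran from -4.94 (C1QB) to -4.20 (C1R), and the median over the 8 was -4.37 against 0.27 over all genes. The 8 genes were chosen because these same tables placed them in macrophages and stroma. The count of lower calls and this median follow in part from that choice and are given as description. The median of all genes was 0.27 here and 1.15 when library size alone set the scale. The stromal matrix genes DCN, LUM, COL1A1 and COL3A1 gave -4.07, -4.24, -3.13 and -3.40, and ACTA2, the actin of myoid cells, gave -3.62. DDX4, a germ cell RNA helicase, gave 3.04. As a fraction of the empty-droplet level, C7 was 0.102, 0.095 and 0.061 in cattle 1, 2 and 3, and the summed C1q chains were at 0.079 ± 0.010 (SD, n = 3).

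The germ-like cells with a C7 UMI were the deeper ones. The 78 cells carried 94 C7 UMIs, 66 of them with a single one. Within cattle 1, 2 and 3 their median depth was 4509, 8516 and 21796 UMIs, against 3489, 5966 and 16066 in the cells without. DCN stood at 554, 170 and 100.4 CPM with C7 and 176, 91.0 and 113 CPM without, so it was higher with C7 in cattle 1, from 2 cells, and in cattle 2, and lower in cattle 3. Before thinning, 12.4 ± 11.07% of germ-like cells and 3.94 ± 3.07% of lymphocyte-like cells had a C7 UMI (SD, n = 3). The median depths behind these shares were 3554.5, 6150.5 and 16908 UMIs for germ-like cells and 570, 1303 and 3553 UMIs for lymphocyte-like cells. Thinned to 500 UMIs, the shares were 1.17 ± 0.24% in germ-like, 1.21 ± 0.46% in lymphocyte-like and 1.31 ± 0.10% in Sertoli-like cells. The germ-like share was thus close to the lymphocyte-like and Sertoli-like shares. The other classes ran from 0.70% (dendritic-like) to 25.3% (stroma), with 1.31% in endothelial-like, 2.93% in macrophage-like and 4.28% in Leydig-like cells. Whether lymphocyte-like and Sertoli-like cells lack the gene was not tested.

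**Figure D4:**
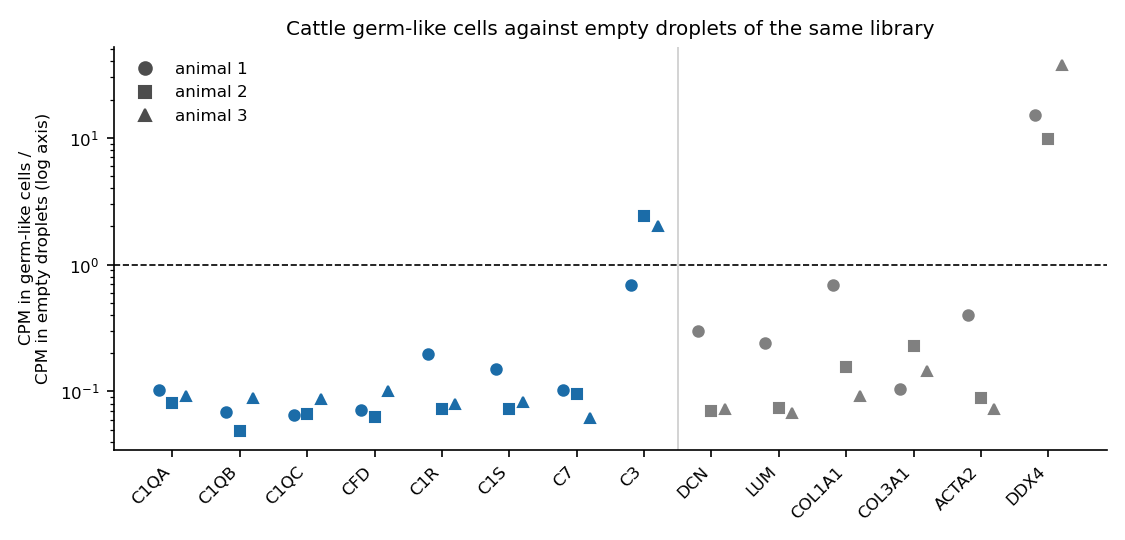
Ratio of the level in cattle germ-like cells to that in empty droplets of the same library, on a log axis, for the 8 complement genes (blue) and for stromal genes and DDX4 (grey), with 1 point per animal. C7 lay at 0.061 to 0.102, C3 at 0.69 to 2.42, and the dashed line marks equal levels.

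C3 was the exception among the complement genes in germ-like cells. Its level there was 20.5, 25.0 and 14.5 CPM, from 6, 33 and 54 UMIs, against 29.6, 10.4 and 7.2 CPM in empty droplets. The germ-like level was lower in cattle 1 and higher in cattle 2 and 3, and the edgeR fit did not call it (log2 difference -0.62 ± 0.55, adjusted p = 0.386). The sign turned to 0.32 with library size alone and to 0.23 without cattle 1. In the 8 classes, C3 was highest in macrophage-like and Leydig-like cells: 34.1, 94.9 and 68.9 CPM and 71.6, 81.4 and 23.3 CPM in cattle. Pig Leydig-like cells held 201, 99.3 and 124 CPM. Pig macrophage-like cells held 27.8, 234 and 23.2 CPM, so that pig 2 set their mean. The ranges of the leading classes overlapped in both species. Cattle stroma held 13.4, 6.6 and 4.7 CPM and cattle endothelial-like cells gave 0 C3 UMIs in 133 cells.

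Between the species, C7 apart, 5 of the other 7 genes were called higher in cattle macrophage-like cells and none higher in pig. Of all 8065 genes tested, 13.2% were called higher in cattle and 23% higher in pig, or 36.2% in either direction. The genes were chosen with earlier readings of these same data known, so their count is given as description. The log2 differences (cattle over pig, edgeR, Benjamini-Hochberg adjusted) were 2.59 ± 0.39 for C1QA (adjusted p = 2.0e-06), 2.94 ± 0.41 for C1QC (7.1e-07) and 1.31 ± 0.35 for C1QB (0.0038). CFD gave 2.42 ± 0.37 (2.8e-06) and C1S 3.01 ± 0.52 (2.0e-05). The pig class was mixed, so these differences compare whole classes and not like macrophages. At Leiden resolution 2, C1QB was 5719 CPM in the pig cluster led by CXCL13 and 99.8 to 1644 CPM in the other pig clusters. The cattle clusters held 8067 and 7263 CPM. Whether the make-up of the classes enters the differences was not tested. C7, listed at 0 UMIs in pig macrophage-like cells, was at least 54.4-fold higher in cattle (75 UMIs in 1031221 against a floor of 3 counts over the pig group), and was called as well, but it passed the count filter through cattle alone. C1R (-0.70 ± 0.50, adjusted p = 0.278) and C3 (-0.45 ± 0.57, adjusted p = 0.578) were not called. C1S and C7 in cattle macrophage-like cells lay under free RNA, C7 at 0.508, 0.260 and 0.290 of the empty-droplet level. With doublets kept, C1QB was no longer called (adjusted p = 0.11). Without pig 2, C3 turned to 1.63 (adjusted p = 0.033), and without pig 3, C1R turned to 0.70 (adjusted p = 0.33).

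In stroma, C7 apart, 5 of the other 7 were called higher in cattle, against 29.1% of 10520 genes, and C3 was called higher in pig, against 28.8% (57.9% were called in either direction). C7, with 3 pig UMIs, was called higher in cattle as well, but it passed the count filter through cattle alone. Here too the count of genes chosen from these same data is given as description. C1S differed by 3.04 ± 0.41 (adjusted p = 2.6e-05) and C1R by 1.55 ± 0.37 (adjusted p = 0.0027). C3 differed by -1.53 ± 0.53 (adjusted p = 0.023), from 76.7 (pig 1, from 86 cells), 16.4 and 48.4 CPM in pig and 13.4, 6.6 and 4.7 CPM in cattle. CFD was not called (0.44 ± 0.38, adjusted p = 0.33), and its mean stromal CPM was 47.3 in cattle and 80.5 in pig. The log2 TMM scaling factors of the stromal sums were -0.40, -0.53 and -0.45 in cattle 1, 2 and 3. For pigs 1, 2 and 3 they were 0.60, 0.41 and 0.38. The stromal log2 differences of the main fit therefore lie further towards cattle than the CPM values. The C1q chains differed by 2.79 ± 0.52, 1.84 ± 0.57 and 3.41 ± 0.52, but the cattle stromal C1Q level of 398 ± 32.5 CPM lay under the 2427 ± 1109 CPM of empty droplets (SD, n = 3). C3 lost its call without cattle 2 (adjusted p = 0.076), cattle 3 (0.092), pig 1 (0.061) or pig 3 (0.19). C1R was lost with library size alone (0.13), and C1QB with library size alone (0.15), with DESeq2 (0.15) and without pig 2 (0.053).

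**Figure D5:**
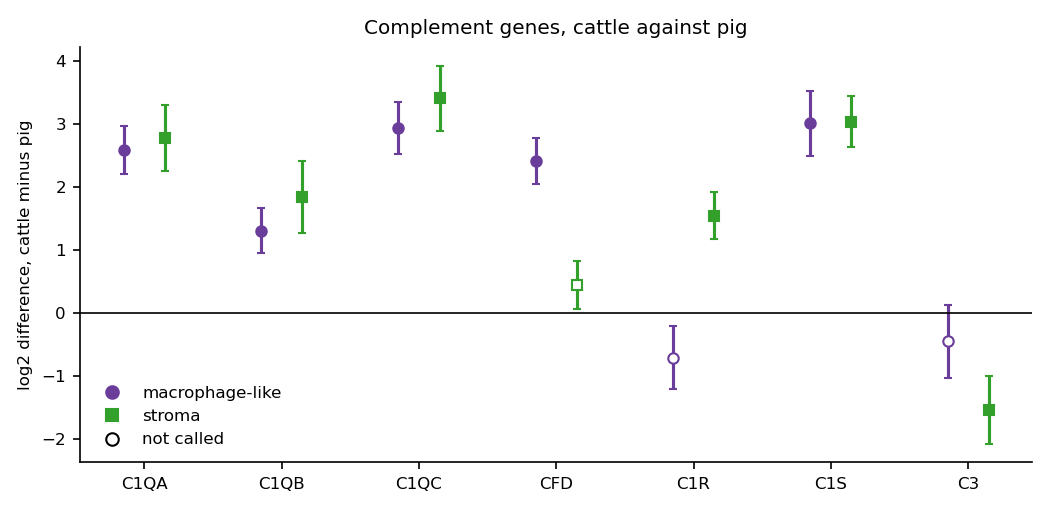
Log2 difference between cattle and pig, with its SE, from the edgeR fits over 3 cattle and 3 pigs, in macrophage-like cells (circles) and stroma (squares). Filled symbols were called at an adjusted p under 0.05; C7, at or near 0 in pigs, is left out. C1q chains and C1S were higher in cattle in both classes, and CFD was called in macrophage-like cells alone.

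Whether the species difference itself differed between macrophage-like cells and stroma was not tested. Across the species, CPM within a class depends on which genes each annotation counts, and the fits used the symbols that both species list.

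The wider pathway was read from a list of 40 further complement genes, of which 33 symbols are listed in cattle and 29 in pig. In germ-like cells, 14 of the 21 that could be tested were called lower than in empty droplets and 1 higher, against 20.3% and 20.1% of all genes. The 1 called higher was VTN, at 4.07 CPM in germ-like cells and 25 UMIs in all cattle classes together. Genes that passed the count filter through germ-like cells or empty droplets alone were not set apart. Several listed genes were highest in other cattle classes, such as VSIG4 and CFP in macrophage-like cells. The counts are therefore description and are not read against the shares of all genes. The lowest adjusted p belonged to C8G, a part of the terminal complex, at -3.65. CLU and SERPING1, inhibitors of the terminal complex and of C1r and C1s, gave -3.35 and -3.65. VSIG4, a complement receptor of macrophages, C1QBP, which can bind C1q heads, and CFP, the stabiliser properdin, gave -5.12, -1.70 and -3.08.

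In macrophage-like cells, 7 of 16 pathway genes were called higher in cattle and 5 higher in pig, against 13.2% and 23% of all genes. Some of these had no UMI in a species and passed the count filter through the other alone. They stay in the counts, so the counts are not read against the shares of all genes. C2, which C1s cleaves, differed by 5.58 ± 0.62, from 213 ± 82.9 CPM in cattle to 5.39 CPM in pig. CR2, a receptor for C3 fragments, was also higher in cattle (4.37 ± 0.81). Its levels spread widely between animals, at 193 ± 169 CPM in cattle and 12.1 ± 21.0 CPM in pig (SD, n = 3). C8G and CFI, the protease that inactivates C3b, were called higher in cattle too, with pig sums near 0 and so no fold given. C4BPA, a brake on the classical pathway, stood at 393 ± 147 CPM in pig macrophage-like cells and gave 3 UMIs in all cattle classes together, none of them macrophage-like. C5AR1, a receptor for C5a, was higher in pig as well (-4.22 ± 0.61). The edgeR adjusted p was 6.6e-09 for C2, 1.3e-06 for C5AR1 and 5.7e-05 for CR2.

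In stroma, 9 of 19 pathway genes were called higher in cattle and 6 higher in pig, against 29.1% and 28.8% of all genes. As in macrophage-like cells, the counts include genes that passed the count filter through cattle or pig alone. They are therefore not read against the shares of all genes. SERPING1, the C1 inhibitor that stops C1r and C1s, was highest in stroma of both species, at 1683 ± 127 CPM in cattle and 550 ± 134 CPM in pig. Its fitted log2 difference was 2.47 ± 0.29, which the TMM scaling sets further towards cattle than the CPM values. C8G (4.47) and CALR (1.85) were higher in cattle as well. C2 and C8B were called higher in cattle too, with pig sums at or near 0 and so no fold given. CD59, which shields cells from the terminal complex, was higher in pig (-3.29 ± 0.51). C4A, read in pig, stood at 3364 ± 1277 CPM in stroma and 1574 CPM in Leydig-like cells, and C4 was not analysed in cattle. CLU was highest in Sertoli-like cells of both species, at 5496 ± 2103 CPM in cattle and 27845 ± 6444 CPM in pig.

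The genes most like each complement gene were sought over 24 sums of class and animal in cattle and 23 in pig, by Pearson's r of log2(CPM + 10). For the C1q chains in cattle these were BRN (0.98), FOLR2 (0.96), a folate receptor of tissue macrophages, and PLA2G2D3 (0.96). BRN (0.96), VSIG4 (0.95) and CD68 (0.94), a lysosomal protein of macrophages, were nearest to CFD. For C1S they were MGP (0.97), MYL9 (0.95) and CDH11 (0.90), and for C1R they were CYP2D14 (0.91), MGP (0.91) and MYL9 (0.90). C7 was nearest to APOD (0.94), COL1A2 (0.92) and PDGFRA (0.89), genes of fibroblast-like cells. C3 was nearest to EMILIN2 (0.87), TTYH2 (0.84) and FADS6 (0.84).

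In pigs the nearest genes were C4BPA (0.95), CFP (0.94) and PLAUR (0.93) for the C1q chains. C1S was nearest to EMILIN1 (0.95), PCOLCE (0.94) and COL5A2 (0.94), genes of the extracellular matrix. C1R was nearest to CXCL10 (0.85), FOXS1 (0.81) and TIMP1 (0.81), and CFD to SH3BGRL3 (0.93), ARHGDIB (0.92) and LAPTM5 (0.91). C3 had TMEM141 (0.79), PIR (0.77) and RNF170 (0.75), and C7 was too low to be ranked. The sums share libraries and cell classes, so these values describe a likeness of pattern and carry no p.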

How the data were processed

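The authors aligned 10x reads to ARS-UCD1.2 (cattle) and Sscrofa11.1 (pig) with Cell Ranger 2.1.0 and deposited raw UMI counts per gene and barcode. The pig matrix headers name another software version than the methods, and the gene annotation release and strand setting are not given in the sources used here. Barcodes were kept as cells when their UMIs reached 1 in 10 of the 99th percentile of the top 3000. At least 200 genes were also needed. Doublets were left out as the highest Scrublet scores, at a set rate of 0.8% per 1000 cells and not by Scrublet's own calls. That took out 100, 613 and 308 barcodes in cattle 1, 2 and 3, where Scrublet called 8, 500 and 317. In pigs 1, 2 and 3 it took out 84, 124 and 41, where Scrublet called 137, 1 and 11. Cells were clustered per species in scanpy 1.11.5 (2000 variable genes, 30 components, 15 neighbours, Leiden resolution 1), without the complement genes, and named "-like" from marker lists. HSD17B3 was not counted as a Leydig marker in pig, which was decided after the clusters were seen. Cattle barcodes with at most 50 UMIs were summed as empty droplets.

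UMIs were summed per animal and class. Sums of genes with at least 10 counts were compared with edgeR 4.0.16 (TMM, quasi-likelihood, two-sided, Benjamini-Hochberg over all genes, called at 0.05), with DESeq2 1.42.0 as an alternative. The fits were tested on a single simulated data set per comparison, in which at most 200 genes were changed. False calls were above the nominal rate for germ-like cells against empty droplets and for stroma, and under it for macrophage-like cells. Adjusted p-values may therefore be too small for the first and for stroma. Far more genes were called in the data than were changed in the simulation, so the size of this error is not known. Named pathway genes were the 6 with the lowest adjusted p in each comparison. The members and lists were chosen with earlier results of these data known. Germ-like cells and empty droplets of 1 library come from the same animal, and their deviations from the group means correlated at 0.52, 0.39 and 0.41 over 7240 genes. Intervals and floors cover counting error alone. Between 2 libraries of a species with 1 testis number, p-values may measure technical spread. Sequences and gene positions are from RefSeq on Sscrofa11.1.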

Additional observations from a re-analysis of the deposited data

Results flagged for a closer look

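Of 36 contrasts between pairs of classes that were looked at in both species, 2 went one way in all 3 animals of a species and the other way in all 3 of the other. C1R was higher in macrophage-like than in Leydig-like cells of every pig, by a mean of 137 CPM, and lower in every cattle animal, with a mean difference of -197 CPM. CFD was lower in macrophage-like than in dendritic-like cells of every pig, with a mean difference of -420 CPM, and higher in every cattle animal, by a mean of 3776 CPM. In pigs 1 and 2 the C1R levels rested on 11 and 16 macrophage-like UMIs and on 14 and 2 Leydig-like UMIs. The contrasts of C7 could not be flagged, since pig 1 gave 0 C7 UMIs in all its cells. How many of the 36 contrasts random signs would flag was not worked out. The difference between the species was not tested for either gene.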

How the results depend on the processing

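Of the 126 values of the main results recomputed under an alternative, 118 were kept, each kind by its own rule. Counts of called genes had to stay within 1.5-fold and mean levels within an SD of the main mean. The C7 difference had to keep its sign and, in the edgeR fit, its call. Leaving out 1 of 3 animals cannot move a mean level by an SD, so those values could not fail. At Leiden resolution 2 the cattle germ-like class held the same cells as in the main run. No value of germ-like cells against empty droplets could therefore change in that setting. Of the 533 values for single genes, 517 kept their direction and side of the threshold. The genes called between cattle germ-like cells and empty droplets (5023) ranged, with 1 animal left out, from 1408 (without cattle 2) to 5663 (without cattle 1), with 2600 without cattle 3. With library size alone they were 6955. Those called between species in macrophage-like cells (2921) were 1304 with DESeq2 and 1653 at a minimum of 50 counts. With 1 animal left out they ranged from 1049 (without cattle 3) to 2920 (without pig 1), with 1939 without cattle 2 and 1748 without pig 3. CFD in pig dendritic-like cells was 1325 CPM at Leiden resolution 2. C3 in germ-like cells turned to 0.32 with library size alone and ran from -1.13 to 0.23 with 1 animal left out. In macrophage-like cells, C1R ran from -0.97 to 0.70 and C3 from -1.14 to 1.63 with 1 animal left out, and C3 was 0.38 at a minimum of 500 UMIs. CFD in stroma turned to -0.47 with library size alone. The cause was not tested for any of these.

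With the animal as a replicate block, C7 in germ-like cells gave -4.51 and 6484 genes were called, and no complement gene changed its call. Library size alone moved the share of calls that were higher in germ-like cells from 49.8% to 79.3%, and of those higher in cattle stroma from 50.3% to 25.4%. The leading class of a complement gene was kept in 63 of 66 cases. C3 moved to Leydig-like cells in cattle with doublets kept or without cattle 3, and to macrophage-like cells in pigs without pig 1. With 3 animals a species, low levels rest on few UMIs.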
